A study of Mus musculus with 29 samples.

Results

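Trp53 and 9 genes under the control of its product, p53, were followed in RNA-seq of mouse hematopoietic stem cells (HSCs). The 10 genes are Trp53, Mdm2, Bax, Bbc3, Ccng1, Phlda3, Sesn2, Zmat3, Eda2r and Trp53inp1, taken by gene symbol from the 55376 symbols counted in each library. The study asked how loss of GADD45B, a stress-induced protein tied to DNA demethylation, bears on HSC aging. HSCs came from young and old wild-type mice (YWT and OWT, 4 libraries each), young Gadd45b knockout mice (YKO, 4 libraries) and old knockout mice (OKO, 7 libraries). The labels give age as young or old and name no treatment, and the knockout mice are of 1 line, bred and aged by the study. Levels are given as CPM, counts relative to the library total after TMM normalization, which evens out differences in RNA composition.

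p53 is a transcription factor that is kept low by constant degradation and is stabilized when DNA damage or other stress is sensed. Once stabilized it binds a paired motif near its target genes and raises the transcription of genes for cell cycle arrest, DNA repair, metabolism and cell death. In HSCs p53 is known for its role in quiescence and in the removal of damaged cells. Because p53 is controlled mainly as a protein, the level of its mRNA is not a measure of its activity, and the mRNAs of its targets are the usual transcript readout.

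A p53 site holds 2 half-sites of 10 bases, and the promoters of the genes were searched for it. Promoter windows of 300 bases (250 before and 50 after the start) from RefSeq on GRCm38.p6, which has the coordinates of mm10, were at hand for 8 of the 10 genes, with 10 windows in all. Zmat3 and Trp53inp1 have no entry. A site was called where 2 half-sites with a spacer of 0 to 13 bases matched the p53 consensus with at most 3 mismatches and with the C and G of each core intact. The consensus is its own reverse complement, so 1 scan covered both strands, and sites could overlap each other. Such a site stood in 5 of the 10 windows and in 4 of the 8 genes, against 15.6% of all 32851 windows and 17.4% of all 27025 genes with a window. The best upstream sites are given 5′ to 3′ on the strand of the gene because they are the sequences through which p53 could reach these promoters. Capitals mark the half-sites.
Ccng1: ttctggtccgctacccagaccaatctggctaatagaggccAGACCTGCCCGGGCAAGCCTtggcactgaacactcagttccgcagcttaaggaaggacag
Bax: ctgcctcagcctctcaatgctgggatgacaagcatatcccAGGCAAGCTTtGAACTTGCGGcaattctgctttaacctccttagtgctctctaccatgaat
Bbc3: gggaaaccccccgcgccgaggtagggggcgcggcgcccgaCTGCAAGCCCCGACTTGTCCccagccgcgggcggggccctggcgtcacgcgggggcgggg
Trp53: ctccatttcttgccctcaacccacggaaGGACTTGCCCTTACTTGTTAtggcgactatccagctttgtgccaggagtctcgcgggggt
The Ccng1 sequence lies at chr11:40755422-40755521 on the minus strand, and its site has 1 mismatch, a closeness found in 0.627% of all windows. The Bax sequence lies at chr7:45467039-45467139 on the minus strand, and its site has 2 mismatches and a spacer of 1 base. The Bbc3 sequence at chr7:16309446-16309545 and the Trp53 sequence at chr11:69580256-69580343, both on the plus strand, hold sites with 3 mismatches. All 4 sites lie upstream of a RefSeq start and outside the exons of GENCODE M21, and that of Bbc3 lies within the annotated span of the gene, in an intron of its longer transcripts. An exact half-site stood in windows of Bax, Mdm2, Ccng1 and Trp53, against 8.36% of all windows. These matches describe the letters in the windows, and binding was not measured. The genes were chosen as p53 targets, so the shares beside all windows and genes are not a test of p53 control. Sites outside the windows were not searched.

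Depth was between 22197555 and 77970627 counts per library (median 57562473). The sample titles of 8 libraries begin with IB15, and these are the libraries of the second batch in the study's sample table, which does not say what the batches are. They are all 4 OWT and 4 of the 7 OKO libraries. OWT and YWT thus hold no library of a shared batch, and the batch can be taken out of their comparison only through a term estimated between the OKO libraries. Gadd45b, deleted in the knockout, was at 7.34 to 17.5 CPM in YWT, 10.1 to 15.5 in OWT, 5.14 to 14.3 in YKO and 2.84 to 6.94 in OKO, and the ranges of YKO and YWT overlapped. YKO1 at 12.7 CPM and YKO2 at 14.3 CPM lay above 3 of the 4 YWT libraries. Whether these reads come from outside the deleted part was not tested, so the Gadd45b level does not check the YKO labels. The 9 HSC markers (Kit, Slamf1 and others) were counted in every library, with a summed level of 2307 to 4841 CPM. Their fitted values differed between groups, with 0 called. All 9 were higher in OWT than in YWT (median log2 difference 0.48), and 8 were higher in OKO than in YKO (0.52). In YKO 8 were lower than in YWT (−0.53), and all 9 were lower in OKO than in OWT (−0.41). Their part in the values of the 10 genes was not tested. Markers of other cells were counted too, and 6 of 8 B cell, 4 of 8 erythroid, 3 of 8 T cell and 3 of 8 monocyte markers were called lower in OKO than in YKO. Their summed levels in YKO and in OKO were 197 to 1529 and 27.5 to 196 CPM for B cells, 1612 to 4583 and 40.1 to 2563 CPM for erythroid cells, 33.6 to 155 and 10.7 to 53.4 CPM for T cells, and 147 to 199 and 27.4 to 245 CPM for monocytes. Of these markers Cd8a was at 0 in YWT2 and OWT1, and none was at 0 in YKO or OKO. Of 8 granulocyte markers 1, Prtn3, was called higher in OKO than in YKO. It was at 13.5 to 69.6 CPM in YKO and 118 to 293 CPM in OKO. OKO1 stood apart with 22640 genes above 1 CPM, where the other libraries had 15926 to 19171. Of the 10 genes, 6 had their lowest level of all 19 libraries in OKO1. The share of all genes with their lowest level in OKO1 was not worked out, so this count does not set the 10 genes apart. The labels give female for all libraries, yet Y-linked genes had 6133 to 13846 counts in 7 of the 19 and at most 7 counts in the other libraries. The study's table gives a sex for 15 of the libraries, and for 3 of them it goes against the Y-linked counts.

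Each of the 10 genes was detected in every library and passed the filter on low counts. Divided by the length of the annotated exons, the levels in YWT ran from 64.2 ± 11.2 CPM per kb (SD, n = 4) for Trp53 to 0.469 ± 0.222 CPM per kb (SD, n = 4) for Eda2r. After Trp53 came Ccng1 at 34.5 ± 5.00, Bax at 32.5 ± 4.38, Trp53inp1 at 28.6 ± 38.2, Mdm2 at 13.7 ± 1.61, Sesn2 at 11.1 ± 6.08, Bbc3 at 8.20 ± 2.86, Phlda3 at 3.61 ± 0.576 and Zmat3 at 0.478 ± 0.133 CPM per kb. Trp53 lay above Ccng1, Bbc3 above Phlda3 and Phlda3 above Zmat3 in every YWT library, and the other neighbors in this order overlapped.

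**Figure D1:**
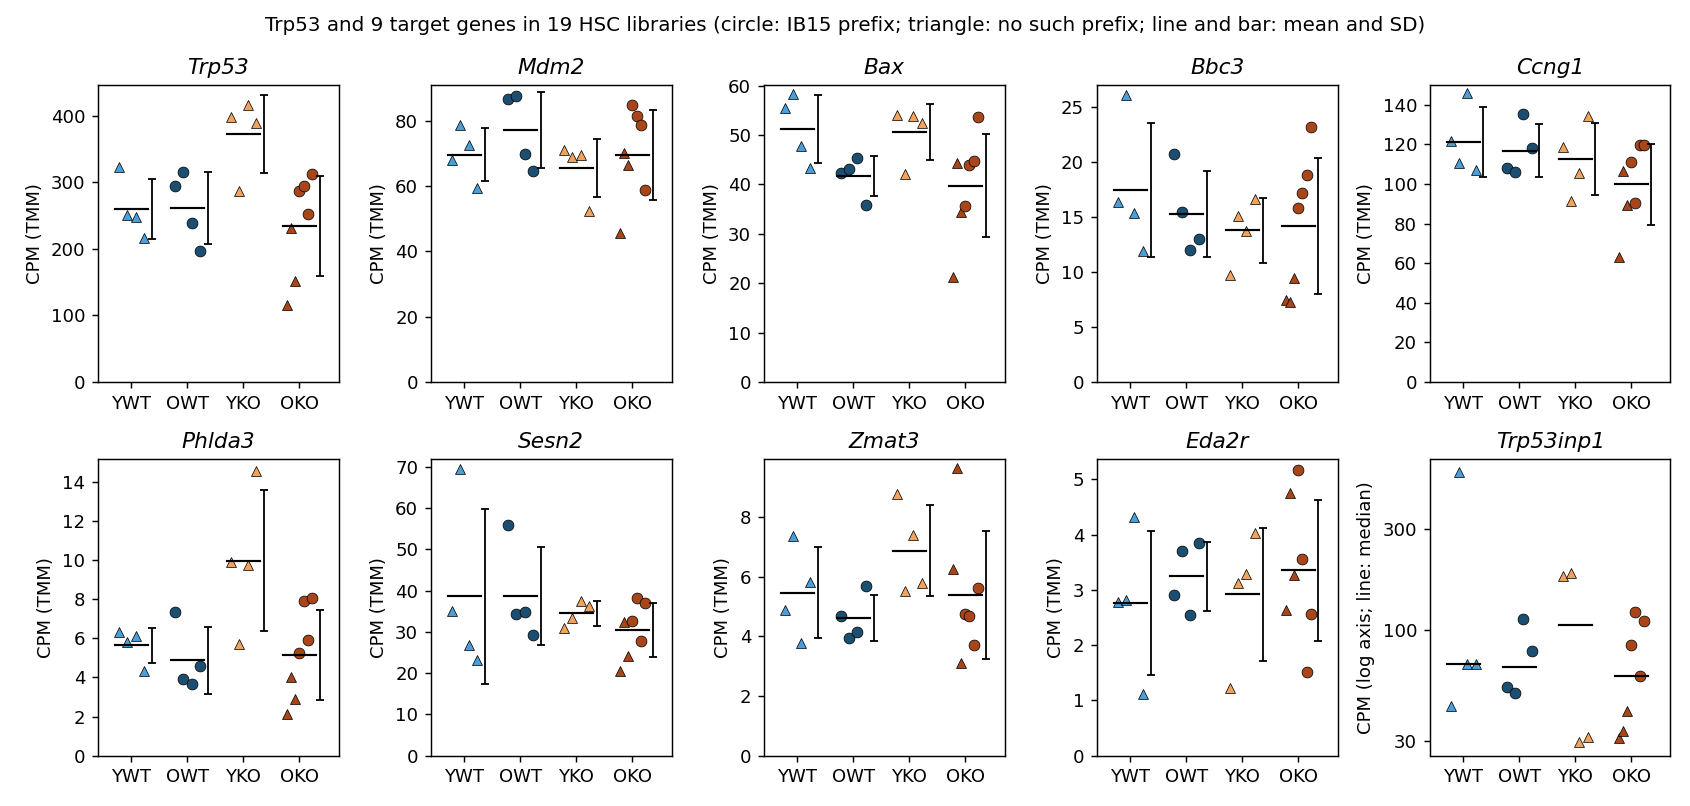
CPM of each gene (vertical axis) in every library, by group (horizontal axis). Points are libraries, circles those with the IB15 prefix and triangles the others, and lines with bars are means with SD except for Trp53inp1, which has a log axis and a line at the median. The Trp53 points of YKO reach 416 CPM, the triangles of OKO lie below the circles of OKO for Trp53 and Phlda3, and YWT2 stands alone for Trp53inp1 at 556 CPM.

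Trp53 (ENSMUSG00000059552.13, chromosome 11, 69580359 to 69591873 on the plus strand of mm10) encodes p53. Its level in YWT1 to YWT4 was 324, 251, 248 and 216 CPM, and in OWT1 to OWT4 it was 294, 315, 238 and 197 CPM. In YKO1 to YKO4 it was 398, 287, 416 and 389 CPM. In OKO it ran from 115 through a median of 252 to 313 CPM. YKO held the 3 highest libraries, YKO2 lay inside the YWT range, and the YWT and OWT libraries overlapped. The difference between YKO and YWT was 0.52 ± 0.28 on the log2 scale (fitted value ± SE, unadjusted p = 0.0736, adjusted p = 1.00). OKO lay below YKO by −0.66 ± 0.24, and 4 of the 7 OKO libraries were under every YKO library (unadjusted p = 0.0113, adjusted p = 0.171). Neither difference passed the adjusted threshold of 0.05 with a fold change over 1.5 in the edgeR quasi-likelihood test. In OWT vs. YWT the log2 difference was 0.0072 ± 0.28, and with the title prefix as a covariate it was −0.78 (adjusted p = 0.24). In OKO vs. OWT it was −0.15 ± 0.24.

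Mdm2 (chromosome 10) encodes the ubiquitin ligase that marks p53 for degradation and is itself a p53 target, which closes a feedback loop. Its level was 68.1, 78.7, 72.5 and 59.3 CPM in YWT1 to YWT4 and 86.6, 87.7, 70.0 and 64.6 CPM in OWT1 to OWT4. In YKO1 to YKO4 it was 71.2, 68.9, 69.7 and 52.4 CPM, and in OKO it ran from 45.8 through 70.2 to 84.7 CPM. All 4 groups overlapped, with means between 65.5 and 77.2 CPM. Mdm2 had the smallest SE of the 10 genes in OKO vs. YKO, 0.18 around a log2 difference of 0.084 (adjusted p = 0.834), and in the other 3 comparisons its log2 difference lay between −0.15 and 0.15.

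Bax and Bbc3 (which encodes PUMA) belong to the BCL2 family and promote mitochondrial cell death. Bax was at 55.5, 58.3, 47.7 and 43.3 CPM in YWT1 to YWT4 and at 42.4, 43.1, 45.4 and 35.9 CPM in OWT1 to OWT4. It was at 54.0, 42.2, 53.8 and 52.5 CPM in YKO1 to YKO4, and in OKO it ran from 21.2 through 43.9 to 53.7 CPM. The old groups had the lower means, 41.7 ± 4.09 CPM (SD, n = 4) in OWT against 51.2 ± 6.90 (SD, n = 4) in YWT and 39.7 ± 10.4 (SD, n = 7) in OKO against 50.6 ± 5.68 (SD, n = 4) in YKO, with overlapping libraries. The log2 differences of Bax were −0.30 ± 0.22 in OWT vs. YWT (unadjusted p = 0.194) and −0.35 ± 0.19 in OKO vs. YKO (unadjusted p = 0.0847). Of the annotated exon bases of Bax, 12.2% are shared with Gm45808 on the same strand, so the reads of these bases could not be assigned with certainty. Bbc3 was at 16.4, 26.1, 15.4 and 11.9 CPM in YWT1 to YWT4, at 20.7, 15.4, 12.0 and 12.99 CPM in OWT1 to OWT4 and at 9.69, 15.1, 13.7 and 16.6 CPM in YKO1 to YKO4. The 7 OKO libraries ran from 7.25 through 15.8 to 23.2 CPM, the widest range of the 4 groups. Its log2 difference was between −0.34 and 0.040 in the 4 comparisons, with SE of 0.30 to 0.34.

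Ccng1 (cyclin G1) recruits a phosphatase that acts on MDM2 and is among the most p53-dependent transcripts. Its level was 122, 110.4, 146 and 107 CPM in YWT1 to YWT4, 108, 106, 135 and 118 CPM in OWT1 to OWT4 and 119, 91.4, 106 and 134 CPM in YKO1 to YKO4. OKO ranged from 63.0 through 106 to 119.6 CPM. The groups overlapped, and its log2 difference lay between −0.23 and −0.054 in the 4 comparisons.

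Phlda3 encodes a pleckstrin-homology protein that competes with AKT for membrane lipids. Its level was 6.31, 5.79, 6.12 and 4.33 CPM in YWT1 to YWT4 and 7.36, 3.92, 3.64 and 4.57 CPM in OWT1 to OWT4. In YKO1 to YKO4 it was 9.90, 5.70, 9.72 and 14.6 CPM. Among the OKO libraries it ran from 2.11 through 5.23 to 8.04 CPM. As for Trp53, YKO1, YKO3 and YKO4 were the 3 highest libraries of all and YKO2 lay inside the YWT range. The log2 difference was 0.82 ± 0.38 in YKO vs. YWT (unadjusted p = 0.0409, adjusted p = 1.00) and −0.95 ± 0.33 in OKO vs. YKO (unadjusted p = 0.00811, adjusted p = 0.152), and neither passed the threshold. In OWT vs. YWT it was −0.21 ± 0.38 and in OKO vs. OWT 0.081 ± 0.33.

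Sesn2 (sestrin 2) restrains mTORC1 signaling under stress, and Zmat3 encodes an RNA-binding zinc finger protein that acts in splicing. Sesn2 was at 34.9987, 69.4, 26.9 and 23.1 CPM in YWT1 to YWT4, at 56.0, 34.4, 34.9 and 29.2 CPM in OWT1 to OWT4 and at 30.9, 33.3, 37.4 and 36.3 CPM in YKO1 to YKO4. In OKO it ran from 20.6 through 32.5 to 38.3 CPM. YWT2 and OWT1 were the 2 highest libraries, and the groups overlapped, with log2 differences from −0.34 to 0.0015. Zmat3 was at 4.90, 7.38, 3.78 and 5.81 CPM in YWT1 to YWT4, at 4.68, 3.94, 4.14 and 5.70 CPM in OWT1 to OWT4 and at 8.78, 5.51, 7.40 and 5.78 CPM in YKO1 to YKO4. The 7 OKO libraries ran from 3.10 through 4.75 to 9.63 CPM. OKO2, at 9.63 CPM, was the highest library for Zmat3, and its log2 differences lay between −0.35 and 0.33.

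Eda2r (on the X chromosome, 97333840 to 97377216 on the minus strand) encodes the receptor for the A2 form of ectodysplasin and was the least expressed of the 10 genes per kb. Its level was 2.78, 2.82, 4.32 and 1.1202 CPM in YWT1 to YWT4, 2.90, 3.696, 2.55 and 3.85 CPM in OWT1 to OWT4 and 1.22, 3.12, 3.29 and 4.03 CPM in YKO1 to YKO4. OKO ranged from 1.51 through 3.27 to 5.17 CPM. The 4 group means lay between 2.76 and 3.35 CPM, closer together than the libraries within each group. The log2 difference with age was 0.24 ± 0.42 in WT (adjusted p = 1.00) and 0.19 ± 0.38 in the knockout (adjusted p = 0.816).

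Trp53inp1 encodes a nuclear protein that promotes phosphorylation of p53 and also takes part in autophagy. It was at 44.2, 556, 69.8 and 69.6 CPM in YWT1 to YWT4, at 53.9, 50.7, 113 and 80.3 CPM in OWT1 to OWT4 and at 179.7, 186, 29.8 and 31.3 CPM in YKO1 to YKO4. Among the OKO libraries it ran from 31.1 through 61.3 to 122 CPM. YWT2 lay far above the next YWT library, and the YKO libraries fell into a high and a low pair. The log2 difference in OWT vs. YWT was −1.31 ± 0.70 (unadjusted p = 0.0754, adjusted p = 1.00), and without YWT2 it was 0.28. In YKO vs. YWT it was −0.79 ± 0.70, and without YWT2 it was 0.76. Leaving out YWT2 thus turned the sign of both. In YKO vs. YWT the value was negative again when YKO1 and YKO2, the high pair of YKO, were left out as well. A list of 8 plasma cell markers (Jchain, Mzb1, Sdc1, Xbp1, Irf4, Tnfrsf17, Derl3 and Fkbp11) was chosen after these values were seen. Its summed level was 27045 CPM in YWT2, 13773 in YKO2 and 8889 in YKO1, the libraries with the most Trp53inp1. In the other 16 libraries it was 133 to 4775 CPM. Most of these high sums was Jchain, at 24827, 12481 and 7968 CPM. All but Xbp1 and Fkbp11 were highest in YWT2. Xbp1 was highest in OKO5 (1260 CPM, against 1242 in YWT2). Fkbp11, highest in OKO7 (53.2 CPM), was at 20.2 in YKO1 and 25.3 CPM in YKO2, below each YWT library. None of the 8 markers was at 0 in any library. The part of these markers in the Trp53inp1 values was not tested. In bulk libraries a different number of cells of a type and a different amount of RNA per cell cannot be told apart.

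**Figure D2:**
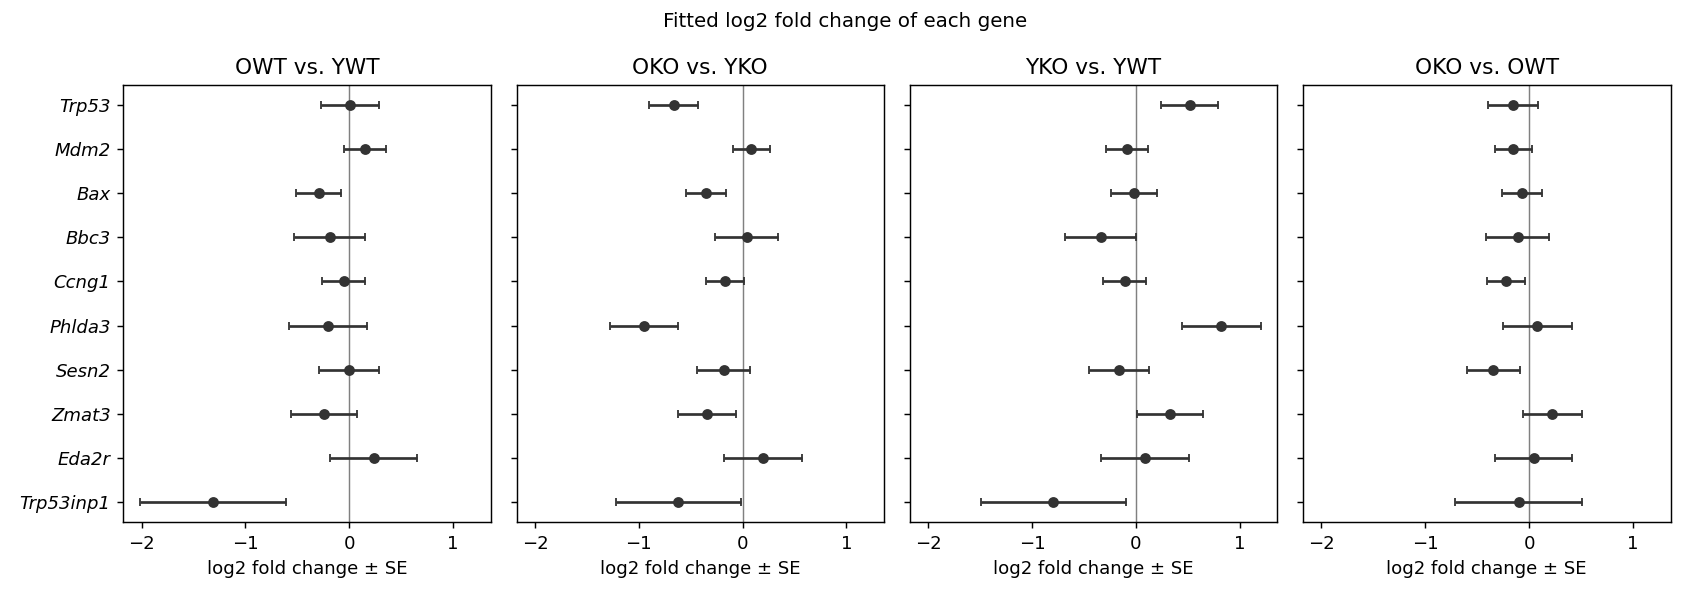
Fitted log2 fold change of each gene (horizontal axis, points) with its SE (bars), one line per gene, in the 4 comparisons. Phlda3 and Trp53 lie furthest from 0 in OKO vs. YKO at −0.95 and −0.66, and Trp53inp1 has the widest bars, with an SE of 0.60 to 0.70.

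The first comparison, OWT vs. YWT, addresses aging in WT HSCs. The edgeR test called 0 of the 10 genes, DESeq2 also called 0, and 0 of the 10 had an unadjusted p under 0.05. Of all 33690 genes tested, 0.00297% were called, 4.38% had an unadjusted p under 0.05, and 4.13% had WT groups that did not overlap, as 0 of the 10 genes did. The median log2 difference of the 10 genes was −0.12 beside −0.046 over all genes. With the title prefix as a covariate, whose term comes from the OKO libraries, edgeR again called 0 of the 10 genes, and 0.0623% of all genes. In that fit Trp53inp1 was at −2.73 (adjusted p = 0.215), Bbc3 at −1.41 (adjusted p = 0.168), Phlda3 at −1.37 (adjusted p = 0.207) and Bax at −0.71 (adjusted p = 0.243). These values lie further from 0 than those without the covariate, by more than 1.5 times for all 4 genes. Markers of other cells and of the cell cycle moved with this comparison too, with 0 called in each list. All 10 cell cycle markers had lower fitted values in OWT (median log2 difference −0.55, 1 with an unadjusted p under 0.05), as did all 8 B cell markers (−2.38, 6 of 8) and all 8 erythroid markers (−1.07, 3 of 8), while all 8 granulocyte markers had higher ones (1.69, 6 of 8). Their summed levels in YWT and in OWT were 559.7 to 1088 and 324 to 822 CPM for the cell cycle, 219.8 to 659 and 64.2 to 209 CPM for B cells, 656 to 2077 and 167 to 949 CPM for erythroid cells, and 207 to 386 and 594 to 855 CPM for granulocytes. Their part in the values of the 10 genes was not tested.

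OKO vs. YKO addresses aging without GADD45B. Here edgeR again called 0 of the 10 genes, where 1.29% of all genes were called. The unadjusted p was under 0.05 for 2 of the 10, Trp53 and Phlda3, both lower in OKO, beside 15.8% of all genes. The libraries of the 2 groups overlapped for all 10 genes, and did not for 2.6% of all genes. The median log2 difference was −0.26 over the 10 genes and 0.23 over all genes. That of all genes moved to 0.43 with upper-quartile normalization and to 0.032 over the genes that averaged 5 CPM or more, and 7 of the 10 genes lay below 0, of which Ccng1 and Sesn2 crossed 0 with that filter. Cell cycle markers moved alongside: all 10 of them, Mki67 and Top2a among them, had lower fitted values in OKO, with a median log2 difference of −0.95, 0 called and 5 with an unadjusted p under 0.05. Their summed level was 757 to 1280 CPM in YKO and 92.0 to 1206 CPM in OKO. The part of cycling or of the lymphoid and erythroid markers named above in the Trp53 and Phlda3 values was not tested.

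The calls in OKO vs. YKO depended on the setting. DESeq2, the tool of the study, called 2 of the 10 genes, Trp53 (−0.62, adjusted p = 0.0376) and Phlda3 (−0.91, adjusted p = 0.0377), where it called 6.3% of all genes. Restricted to 12363 genes at a mean of 5 CPM or more before TMM scaling, edgeR called Phlda3 (−0.78, adjusted p = 0.0407) and 12.1% of all genes, and Trp53 had an adjusted p of 0.0181 at a log2 difference of −0.48, under the fold threshold. With the replicate number as a block it called Phlda3 (−1.45, adjusted p = 0.0313) and 5.27% of all genes. OKO5, OKO6 and OKO7 share their numbers with no other library, so that fit in effect sets OKO1 to OKO4 against YKO. Of these only OKO4 has the IB15 prefix, and the numbers do not pair the samples.

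The OKO libraries of the 2 batches differed. Within OKO, Trp53 was at 252 to 313 CPM in the 4 libraries with the IB15 prefix and at 115 to 231 CPM in the 3 without it. Phlda3 was at 5.23 to 8.04 and 2.11 to 4.04 CPM, Bbc3 at 15.8 to 23.2 and 7.25 to 9.47 CPM, and Trp53inp1 at 61.3 to 122 and 31.1 to 41.7 CPM. For 4 of the 10 genes the 2 sets of OKO libraries did not overlap, all 4 higher with the prefix, beside 32.4% of all genes in either direction, 12.4% higher with the prefix (4179 genes) and the rest lower (6729 genes). OKO1 is among the 3 without it, so the batch and that library's own state cannot be told apart from these values alone. Against the 3 OKO libraries of the same batch as YKO, Trp53 was lower by −1.10 (adjusted p = 0.00759) and Phlda3 by −1.66 (adjusted p = 0.00661), and edgeR called these 2 of the 10 genes and 17.9% of all genes. With the prefix as a covariate it called the same 2 genes, Trp53 at −1.17 (adjusted p = 0.00479) and Phlda3 at −1.72 (adjusted p = 0.0044), and 19.1% of all genes. The prefix term comes from the OKO libraries alone, so that fit again sets the 3 without it against YKO. It is not a separate result. Against the 4 OKO libraries with the prefix, a set chosen after the values were seen and differing from YKO in batch as well as age, the differences were −0.36 for Trp53 (adjusted p = 0.476) and −0.55 for Phlda3 (adjusted p = 0.512). The within-batch contrast rests on 3 libraries, of which OKO1 is the one that stood apart, and without OKO1 in the fit of all libraries the differences from YKO were −0.56 for Trp53 (adjusted p = 0.151) and −0.82 for Phlda3 (adjusted p = 0.172).

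YKO vs. YWT addresses the knockout in young HSCs, as labelled. edgeR called 0 of the 10 genes, DESeq2 called 0, and 1 of the 10, Phlda3, had an unadjusted p under 0.05. Over all genes 0.0267% were called, 4.59% had an unadjusted p under 0.05, and 5.12% had groups that did not overlap. The median log2 difference was −0.052 over the 10 genes and −0.022 over all genes. The 10 cell cycle markers all had higher fitted values in YKO (median log2 difference 0.46), with 0 called and 0 at an unadjusted p under 0.05. All 8 erythroid markers were higher too (median 1.56), 4 with an unadjusted p under 0.05 and 1 called. So were 7 of 8 T cell markers (1.76, 6 at that p), all 8 B cell markers (1.01, 2 at that p) and 7 of 8 monocyte markers (0.65, 1 at that p), with 0 called. Their part in the Trp53 and Phlda3 values was not tested. OKO vs. OWT addresses the knockout in old HSCs, and there edgeR and DESeq2 called 0 of the 10 genes and 0 had an unadjusted p under 0.05. Over all genes 0.0327% were called, 8.14% had an unadjusted p under 0.05, and 0.819% did not overlap. The median was −0.10 over the 10 genes and 0.12 over all genes, the latter moving to 0.36 with upper-quartile normalization. All OWT libraries but only 4 of the 7 OKO libraries are of the second batch. With these 4 OKO libraries alone edgeR again called 0 of the 10 genes, and 0.0801% of all genes. In that fit Trp53 moved from −0.15 to 0.16, Bbc3 from −0.11 to 0.32 and Phlda3 from 0.081 to 0.49. All 8 granulocyte markers had lower fitted values in OKO than in OWT, 7 of 8 with an unadjusted p under 0.05 and 0 called. These comparisons share groups with the previous ones, so a high YKO group enters both OKO vs. YKO and YKO vs. YWT. The genotype by age interaction, the difference between the 2 age differences, was called for 0 of the 10 genes by edgeR and DESeq2, and 0 had an unadjusted p under 0.05. Of all genes 0% were called by edgeR and 4.62% had an unadjusted p under 0.05.

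Libraries rich in Trp53 tended to be rich in some targets. After subtraction of the group means, the log2 levels of Trp53 over the 19 libraries ran with those of Bax (Pearson r = 0.84, Spearman rho = 0.61), Phlda3 (0.81 and 0.78), Bbc3 (0.62 and 0.62), Mdm2 (0.62 and 0.58), Ccng1 (0.61 and 0.41) and Sesn2 (0.55 and 0.65). For Trp53inp1 (0.12 and 0.12), Eda2r (0.11 and 0.051) and Zmat3 (−0.0050 and 0.0088) they did not. Of the 45 pairs among the 10 genes, 15 had an r of at least 0.5 and 8 were below 0, with a median of 0.27. These values share the libraries and their normalization and are given as a description. Only group means were subtracted, so the difference between the batches within OKO and the low levels in OKO1 stay in them. The r of Trp53 with the targets was not worked out without the libraries furthest from the median. Of 12323 other genes averaging 5 CPM or more after TMM scaling, the 3 whose log2 CPM was most like Trp53 over the 19 libraries were Trim28 (r = 0.987, rho = 0.958), a corepressor of transposable elements, Ddb1 (r = 0.982, rho = 0.963), a subunit of a ubiquitin ligase, and Eftud2 (r = 0.982, rho = 0.963), a spliceosome GTPase. Without the 2 libraries furthest from the median of Trp53, r was 0.973, 0.956 and 0.962. After subtraction of the group means their r was 0.984, 0.974 and 0.980, above that of each of the 9 targets. Trp53inp1 was instead most like Il13ra1 (r = 0.964, rho = 0.949), Faah (r = 0.953, rho = 0.904) and Zc3h12d (r = 0.951, rho = 0.933). Without YKO2 and YWT2 these r were 0.937, 0.896 and 0.920. This search was added after the values were seen.

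**Figure D3:**
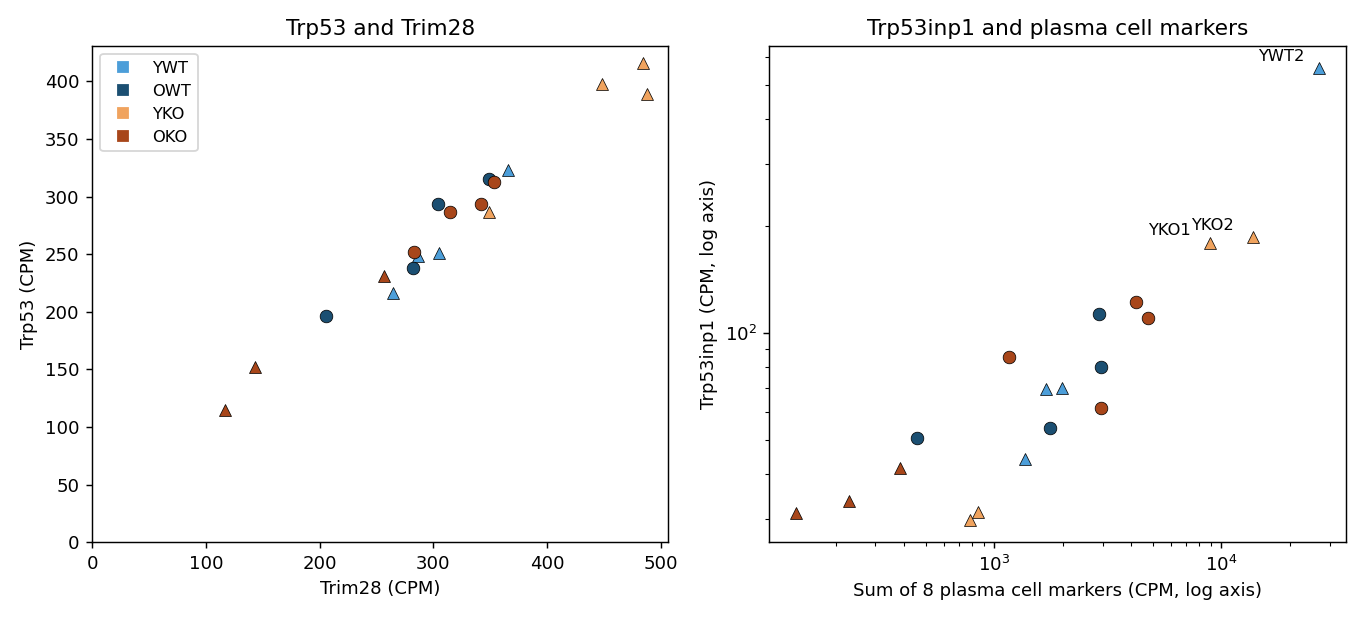
Left, Trp53 (vertical) against Trim28 (horizontal) in CPM on linear axes, and right, Trp53inp1 against the sum of 8 plasma cell markers in CPM on log axes. Points are the 19 libraries colored by group, circles with the IB15 prefix, and the left points lie near 1 line while YWT2 at 27045 CPM lies furthest right in the second panel.

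Other genes of the pathway were read from 37 further p53 targets and 24 regulators of p53, all of them tested. Of the 37 targets 1 was called, Gadd45a in OKO vs. YKO, and edgeR called 0 of the 24 regulators in each comparison. Gadd45a is a p53 target in growth arrest and a paralog of the deleted gene. It was at 42.2, 17.2, 37.8 and 28.0 CPM in YKO1 to YKO4 and at 9.34 to 19.3 CPM in OKO, with a median of 13.3. In 5 of the 7 OKO libraries it lay below every YKO library, and it fell by 1.19 ± 0.25 on the log2 scale (adjusted p = 0.0196). Without YKO1 the value was −0.99 (adjusted p = 0.136) and without YKO3 −1.03 (adjusted p = 0.0842), so the call rested on these libraries. It also missed the threshold with the compared groups alone (adjusted p = 0.066), against the OKO libraries with the IB15 prefix (−0.94, adjusted p = 0.128) and without YWT2, YKO1 and YKO2 (−1.25, adjusted p = 0.19). Gadd45a was at 28.1, 19.5, 18.5 and 11.8 CPM in YWT1 to YWT4, so 2 of the 4 YKO libraries lay above each of them (0.68 ± 0.29, adjusted p = 0.989).

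In OWT vs. YWT, 8 of the 37 targets had an unadjusted p under 0.05, 7 higher and 1 lower in OWT, beside 4.38% of all genes, and the list's median log2 difference was 0.11. The smallest p belonged to Perp, a p53-induced membrane protein of cell death and adhesion, at 9.54 to 25.3 CPM in OWT and 3.77 to 8.39 CPM in YWT (1.47 ± 0.42, adjusted p = 0.478). Ak1, an adenylate kinase (0.90 ± 0.30, adjusted p = 0.734), Ndn, the growth suppressor necdin (0.86 ± 0.31, adjusted p = 0.82), and Sesn1, the paralog of Sesn2 (0.75 ± 0.28, adjusted p = 0.92), were likewise higher in every OWT than in every YWT library without passing the threshold. Gtse1 was lower in every OWT library, at 9.07 to 15.2 against 17.8 to 24.7 CPM. Thus 5 of the 37 targets did not overlap, 4 higher and 1 lower in OWT, beside 4.13% of all genes. Cdkn1a, which encodes p21 and is the main effector of p53-dependent arrest, was at 12.2, 14.4, 6.38 and 7.47 CPM in OWT1 to OWT4 and 4.63, 5.23, 6.42 and 6.41 CPM in YWT1 to YWT4. Its log2 difference was 0.83 ± 0.32 in OWT vs. YWT (unadjusted p = 0.0161, adjusted p = 0.971) and 0.77 ± 0.29 in OKO vs. YKO (unadjusted p = 0.0141, adjusted p = 0.188). All OWT libraries are of the second batch and all YWT libraries of the first. Of the regulators, 2 had an unadjusted p under 0.05, both lower in OWT. These were Atr (−0.67 ± 0.27) and Chek1 (−0.78 ± 0.38), the kinases that answer replication stress, in a comparison where the cell cycle markers given above were also lower. Their part in these values was not tested. Atm, which senses double-strand breaks, was at −0.59 ± 0.31, and the acetyltransferase Crebbp at 0.39 ± 0.25.

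In OKO vs. YKO, 15 of the 37 targets had an unadjusted p under 0.05, 10 higher and 5 lower in OKO, beside 15.8% of all genes, and the list's median was −0.040. After Gadd45a came Ddit4, an inhibitor of mTORC1 (1.10 ± 0.30, adjusted p = 0.067), Gtse1, which moves p53 out of the nucleus in cycling cells (−1.29 ± 0.36, adjusted p = 0.0749), and Polk, a translesion DNA polymerase (0.84 ± 0.24, adjusted p = 0.0793). Among the regulators 4 had an unadjusted p under 0.05, all lower in OKO. They were Chek1 (−1.02 ± 0.32, adjusted p = 0.124), Atr (−0.70 ± 0.23, adjusted p = 0.136), Wrap53 (−0.72 ± 0.25, adjusted p = 0.162) and Ppp1r13l, the inhibitory p53 partner iASPP (−0.58 ± 0.25, adjusted p = 0.262). Atr and Ppp1r13l were lower in each OKO than in each YKO library, so 2 of the 24 regulators and 0 of the 37 targets did not overlap, beside 2.6% of all genes. Wrap53 starts next to Trp53 on the opposite strand, and in YKO vs. YWT it was at 0.35 ± 0.29. Mdm4, the partner of Mdm2 in holding p53 inactive, was at 0.15 ± 0.21 in OKO vs. YKO.

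In YKO vs. YWT, 5 of the 37 targets had an unadjusted p under 0.05, beside 4.59% of all genes. Rrm2b, the p53-inducible subunit of ribonucleotide reductase, was at 9.54 to 13.1 CPM in YKO and 16.0 to 25.8 CPM in YWT (−0.84 ± 0.22, adjusted p = 0.353). Ddit4 (−0.96 ± 0.32, adjusted p = 0.736) and Polk (−0.66 ± 0.26, adjusted p = 0.916) also lay below YWT in all 4 YKO libraries. In all, 5 of the 37 targets did not overlap, 4 lower and 1 higher in YKO, beside 5.12% of all genes. Of the regulators 0 had an unadjusted p under 0.05 here, and the smallest belonged to Ppp1r13l (0.55 ± 0.29), followed by Trp73 (1.06 ± 0.86), Wrap53 and Chek2 (0.33 ± 0.28). In OKO vs. OWT, 2 of the 37 targets and 2 of the 24 regulators had an unadjusted p under 0.05, beside 8.14% of all genes. They were Gls2, the p53-induced glutaminase (0.96 ± 0.35), Perp (−0.85 ± 0.36), Rchy1, a p53 ubiquitin ligase (−0.44 ± 0.17), and Trp63, a p53 relative (1.60 ± 0.72), each with an adjusted p of 0.592. Next came Gfi1 (−0.68 ± 0.38) and Ei24 (−0.30 ± 0.18) among the targets and Trp53bp2 (−0.30 ± 0.18) and Sirt1 (−0.25 ± 0.15) among the regulators. In the interaction, where 4.62% of all genes had an unadjusted p under 0.05, 3 of the 37 targets did, namely Ddit4 (1.27 ± 0.43), Gadd45a (−1.08 ± 0.39) and Polk (0.73 ± 0.35), each with an adjusted p of 0.811, and 0 of the regulators did. Rrm2b was at 0.55 ± 0.29, and Trp63, Atm, Wrap53 and Ppm1d had the smallest p of the regulators, with interactions of 1.95 ± 1.04, 0.56 ± 0.41, −0.51 ± 0.39 and −0.38 ± 0.30. With TMM the medians of the 10 genes ran from −0.26 to −0.052 over the 4 comparisons, while those of the 37 targets ran from −0.20 to 0.11 and those of the regulators from −0.18 to −0.010.

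**Figure D4:**
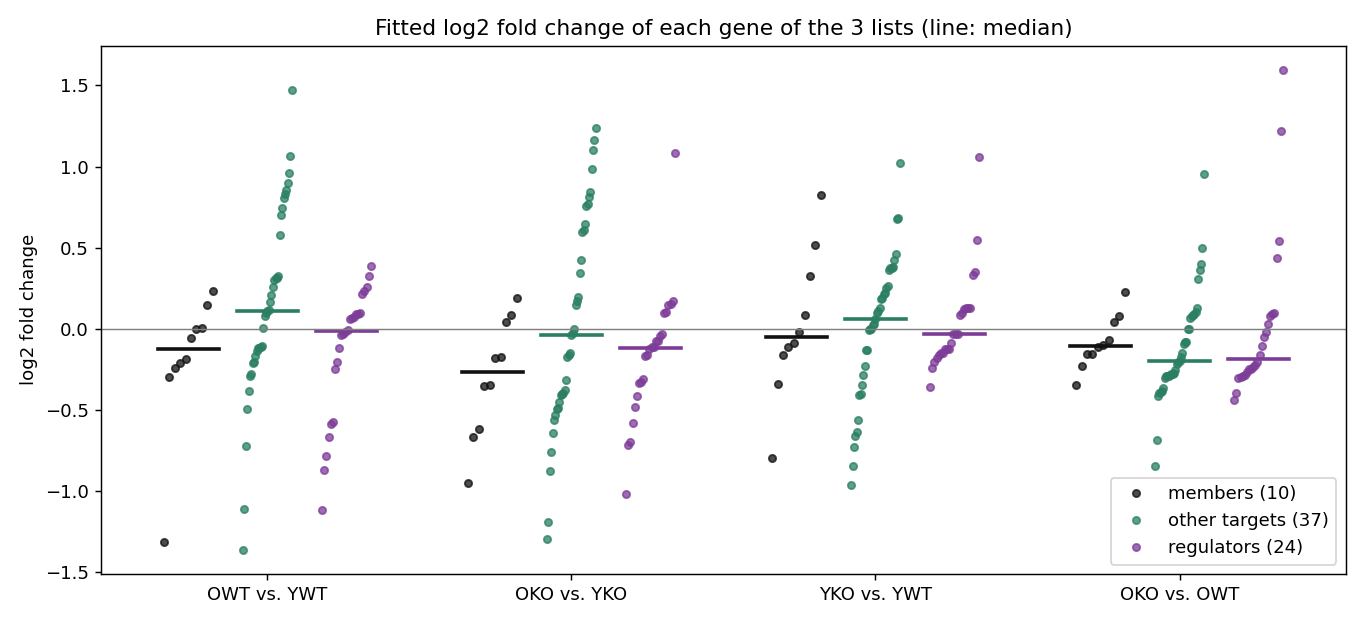
Fitted log2 fold change (vertical axis) of the 10 genes, 37 other p53 targets and 24 regulators in the 4 comparisons (horizontal axis). Points are genes sorted within each list and lines are medians. Perp at 1.47 tops the targets in OWT vs. YWT, and Gtse1 at −1.29 and Gadd45a at −1.19 lie lowest in OKO vs. YKO.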

How the data were processed

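RNA-seq counts of 19 HSC libraries were analysed, and the 10 bisulfite samples were not used here. The authors made SMART-Seq v4 libraries, trimmed reads with Trim Galore 0.4.3, aligned them with STAR to mm10 (GENCODE M22) and deposited raw featureCounts counts per gene symbol. Use of strand is not given in the sources used here. Genes passing filterByExpr were tested with the edgeR 4.0.16 quasi-likelihood test (R 4.3.3, TMM, 1 fit of all libraries, 1 mean per group) and adjusted by Benjamini-Hochberg over 33690 genes. Genes were called at an adjusted p below 0.05 together with a fold change above 1.5, and in the interaction at that p alone. The SE is the size of the log2 difference divided by the square root of the F statistic of the edgeR test. DESeq2 1.42.0 was an alternative. The fits were tested on simulated data. The labels number replicates without naming animals, so p-values measure the spread between libraries. Positions are those of GENCODE M21. Named genes are the 10, and per comparison the called genes or, where fewer than 4 were called, the 4 with the smallest p of the other targets and of the regulators, with Cdkn1a, Gadd45a, Mdm4, Wrap53 and Gadd45b. Alternatives were other normalizations, filters and samples, covariates, a replicate block and leaving out each library. The 10 genes and the lists were chosen with earlier results of these data known. The plasma cell list and 2 sets of libraries were added later.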

Additional observations from a re-analysis of the deposited data

Results flagged for a closer look

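Among 40 sets of values (10 genes in 4 groups), 3 held 1 library far from the others by Dixon's test, where chance gives about 1 in 20, or 2 sets. Trp53inp1 was at 556 CPM in YWT2, against 44.2 to 69.8 CPM in the other YWT libraries, and the same library had the highest summed level of plasma cell markers. Mdm2 was at 52.4 CPM in YKO4, against 68.9 to 71.2 CPM in the other YKO libraries. Bax was at 42.2 CPM in YKO2, against 52.5 to 54.0 CPM in the other YKO libraries.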

How the results depend on the processing

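The count of the 10 genes called stayed at 0 in the interaction, in YKO vs. YWT, in OWT vs. YWT and in OKO vs. OWT under each alternative run, and in OKO vs. YKO when each library was left out in turn. In OKO vs. YKO the count was 2 with DESeq2, 1 with a mean CPM of at least 5, 2 with the title prefix as a covariate, 2 with the OKO libraries without the IB15 prefix and 1 with the replicate block. The prefix covariate and the set without the prefix rest on the same 3 OKO libraries, so their counts are not separate results. The block rests on OKO1 to OKO4, because OKO5, OKO6 and OKO7 share their numbers with no other library. The cause of the changes in the count was not tested. The replicate numbers do not pair the samples: deviations of same-numbered libraries from their group means correlated between −0.47 and 0.30. The block moved the genes called from 434 to 1774 in OKO vs. YKO, from 1 to 9 in OWT vs. YWT, from 9 to 25 in YKO vs. YWT and from 11 to 0 in OKO vs. OWT. Over all genes, calls in OKO vs. YKO were 2122 with DESeq2, 1078 with upper-quartile and 702 with relative log expression normalization, 1502 with a mean CPM of at least 5, 6420 with the title prefix as a covariate, 6285 and 244 with the OKO libraries without and with the IB15 prefix, 115 with the compared groups only, 242 with sex from the study as a covariate (a sex that goes against the Y-linked counts in 3 of 15 libraries) and 22 without YWT2, YKO1 and YKO2. They ran from 102 without YKO1 to 1822 without OKO7. The largest counts in the other comparisons were 135 in OWT vs. YWT, 136 in YKO vs. YWT and 73 in OKO vs. OWT, and 7 in the interaction, all with DESeq2, and the smallest were 0, 0 and 0 in these 3 comparisons, without 1 library, without YWT2, YKO1 and YKO2, and with the replicate block. Other counts were 8 without a filter, 2 with robust estimation, 41 with the compared groups only, 21 with the prefix covariate and 5 without YWT2, YKO1 and YKO2 in OWT vs. YWT. In YKO vs. YWT they were 19 with upper-quartile and 16 with relative log expression normalization, 20 without a filter, 24 with a mean CPM of at least 5, 17 with robust estimation, 33 with the compared groups only, 34 with the prefix covariate and 5 with sex. In OKO vs. OWT they were 7 with upper-quartile normalization, 1 with the compared groups only, 25 with the prefix covariate and 24 with the OKO libraries of the IB15 prefix. Of 816 alternative values of the 40 fitted log2 differences of the 10 genes, 99 had the opposite sign, all of differences that had passed no threshold. With DESeq2 the opposite-sign values were Trp53 −0.027 and Sesn2 −0.025 in OWT vs. YWT, Bax 0.0087 in YKO vs. YWT, Bax 0.031 in OKO vs. OWT. With upper-quartile normalization they were Trp53 −0.060 and Sesn2 −0.044 in OWT vs. YWT, Bax 0.0014 in YKO vs. YWT, Trp53 0.035, Mdm2 0.056, Bax 0.12 and Bbc3 0.072 in OKO vs. OWT. With relative log expression normalization they were Trp53 −0.027 and Sesn2 −0.025 in OWT vs. YWT, Bax 0.0091 in YKO vs. YWT, Bax 0.031 in OKO vs. OWT. With a mean CPM of at least 5 they were Trp53 −0.063 and Sesn2 −0.044 in OWT vs. YWT, Ccng1 0.050 and Sesn2 0.024 in OKO vs. YKO, Trp53 0.057, Mdm2 0.090, Bax 0.15, Bbc3 0.091 and Trp53inp1 0.0077 in OKO vs. OWT. With the compared groups only they were Trp53 −0.0031 and Sesn2 −0.0016 in OWT vs. YWT, Bax 0.0050 in OKO vs. OWT. With the title prefix as a covariate they were Trp53 −0.78, Mdm2 −0.17, Sesn2 −0.40 and Zmat3 0.18 in OWT vs. YWT, Mdm2 −0.11 and Bbc3 −0.77 in OKO vs. YKO, Trp53 0.13, Bax 0.094, Bbc3 0.29, Eda2r −0.020 and Trp53inp1 0.35 in OKO vs. OWT. With the OKO libraries without the IB15 prefix they were Mdm2 −0.044 and Bbc3 −0.71 in OKO vs. YKO. With the OKO libraries with the IB15 prefix they were Trp53 0.16, Mdm2 0.0047, Bax 0.12, Bbc3 0.32 and Trp53inp1 0.38 in OKO vs. OWT. With sex from the study as a covariate they were Bbc3 −0.044 in OKO vs. YKO. With the replicate block they were Bbc3 −0.46 in OKO vs. YKO, Phlda3 −0.44 in OKO vs. OWT. Without YWT2, YKO1 and YKO2, chosen after seeing the data, they were Trp53 −0.0077, Bbc3 0.074 and Trp53inp1 0.29 in OWT vs. YWT, Bbc3 −0.081, Eda2r −0.11 and Trp53inp1 1.199 in OKO vs. YKO, Bax 0.10, Bbc3 0.041 and Sesn2 0.36 in YKO vs. YWT. When 1 library was left out, the values that crossed 0 ranged over Trp53 −0.074 to 0.13, Bbc3 −0.35 to 0.072, Ccng1 −0.12 to 0.058, Sesn2 −0.21 to 0.45, Eda2r −0.025 to 0.56 and Trp53inp1 −1.61 to 0.28 in OWT vs. YWT, Bax −0.089 to 0.061, Sesn2 −0.34 to 0.26, Eda2r −0.17 to 0.38 and Trp53inp1 −1.23 to 0.76 in YKO vs. YWT, Bax −0.16 to 0.046, Bbc3 −0.27 to 0.076, Phlda3 −0.058 to 0.34, Eda2r −0.088 to 0.18 and Trp53inp1 −0.29 to 0.17 in OKO vs. OWT, Bbc3 −0.12 to 0.20 and Eda2r −0.023 to 0.44 in OKO vs. YKO. Eda2r and Zmat3, at a few CPM, had SE of 0.28 to 0.42, and Trp53inp1, at far more counts, 0.60 to 0.70.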
